A study of Drosophila melanogaster with 3 samples.

Results

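The glycolysis genes described here are 10 Drosophila melanogaster genes that encode enzymes of the route from glucose to pyruvate and lactate: Hex-A, Pfk, Ald1, Tpi, Gapdh1, Gapdh2, Pgk, Pglym78, Eno and Ldh. They are 10 of the 13945 protein-coding genes annotated on 6 chromosome arms. The set was chosen by pathway with values of these same data known, in which Gapdh2 and Eno lay at very strong peaks, so the values at the members are a description and were not tested. Chromatin immunoprecipitation followed by sequencing (ChIP-seq) had been used to map Noc, a zinc finger protein, in whole larvae. All 3 libraries were biological replicates of 1 group. The animals came from 1 transgenic line that stably carried noc with GFP joined to the C-terminal end of the protein, were larvae of both sexes pooled, and were labelled with an age of 48 days. The age is given as labelled and is long for a larva of this species. Chromatin had been sonicated to 200 to 800 bp and precipitated with an antibody against GFP, per the description, although the antibody field of the labels names noc. A control alignment entered the authors' peak calling but was not analysed here. No untagged larvae were analysed here either, so a peak at a member is a site enriched in these libraries and not by itself a binding site of Noc. Whole larvae mix many tissues, and a strong signal in few cells cannot be told apart from a weak signal in many.

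In glycolysis, hexokinase traps glucose in the cell by phosphorylation, phosphofructokinase commits the sugar to breakdown, and aldolase splits it into interconvertible triose phosphates. The later steps oxidise the triose and return ATP, and lactate dehydrogenase then turns pyruvate into lactate and regenerates the NAD+ that the oxidation consumed. Growing Drosophila larvae are known to run this pathway at a high rate even in the presence of oxygen, and the oestrogen-related receptor ERR is known to switch many of its genes on before larval growth.

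The values came from 5 peak lists. The authors deposited 30000 peaks for each replicate, 30000 peaks for the pooled libraries and 7201 peaks in a list made by irreproducible discovery rate (IDR), a procedure that keeps peaks whose order repeats between replicates. Each peak carries a summit and a signal value, a score whose scale the labels and text notes do not state. Signal values are therefore given for each list, and libraries are compared by rank and position. Rank 1 is the peak of highest signal in its list. The IDR list holds the 7201 pooled peaks of highest signal, so its values are those of the pooled call and do not form a further replicate. Summits within 100 bp of an IDR summit were found for 5944 IDR peaks in replicate 1, 4964 in replicate 2, 5661 in replicate 3 and 3580 in all 3 replicates. Replicate 2 thus held the fewest of them. The lists give no read totals, so the sequencing depth is unknown.

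A gene was counted as having a promoter summit when at least 1 of its annotated transcription start sites had a summit within 500 bp. In the IDR list 8 of the 10 members had one, all but Pfk and Gapdh1, against 3419 of 13945 protein-coding genes or 24.5%. The members' share was 80.0% with a 95% Wilson interval of 49.0 to 94.3%, and the interval for all genes was 23.8 to 25.2%. These intervals cover counting error only, and the members' share carries the choice of the set. In the pooled list 9 members had a promoter summit, all but Gapdh1, where the share of all genes was 45.4%. Among the 7201 peaks of highest signal in each replicate, 9 members had one in replicate 1, where 25.4% of all genes did. Replicate 2 gave 7 members, without Pfk, Tpi and Gapdh1, and 23.3% of all genes. Replicate 3 gave all 10 members and 24.7% of all genes. Hex-A, Ald1, Gapdh2, Pgk, Pglym78, Eno and Ldh thus had a promoter summit of this strength in all 3 replicates.

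The strongest promoter summits lay at Gapdh2, Eno, Hex-A and Ldh, and the sequence around them is printed because each stretch holds the summit itself. Capitals mark the 21 bases centred on the IDR summit and all sequences run 5′ to 3′ along the gene, read from the RefSeq copy of the dm6 assembly. The Gapdh2 stretch is chrX:15867895-15868144 on the plus strand, the 250 bases before the upstream start site. The Hex-A stretch is chrX:9585425-9585674 on the plus strand and the Ldh stretch is chr3L:6262695-6262944 on the minus strand, again the 250 bases before a start site. The Eno stretch is chr2L:1727881-1728053 on the minus strand, a whole intron of 173 bases that separates exons of the longer transcripts.
Gapdh2: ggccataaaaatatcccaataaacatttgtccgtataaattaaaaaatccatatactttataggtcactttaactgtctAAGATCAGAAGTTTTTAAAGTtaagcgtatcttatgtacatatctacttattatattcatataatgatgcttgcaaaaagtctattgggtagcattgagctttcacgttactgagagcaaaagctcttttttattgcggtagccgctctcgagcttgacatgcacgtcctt
Eno: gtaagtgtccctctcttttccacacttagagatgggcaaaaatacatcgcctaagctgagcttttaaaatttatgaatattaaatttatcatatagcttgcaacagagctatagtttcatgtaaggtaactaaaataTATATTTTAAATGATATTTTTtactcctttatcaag
Hex-A: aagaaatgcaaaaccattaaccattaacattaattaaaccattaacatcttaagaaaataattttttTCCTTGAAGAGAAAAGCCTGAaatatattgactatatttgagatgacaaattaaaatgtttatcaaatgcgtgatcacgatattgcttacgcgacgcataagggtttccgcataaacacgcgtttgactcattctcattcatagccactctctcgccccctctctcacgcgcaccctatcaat
Ldh: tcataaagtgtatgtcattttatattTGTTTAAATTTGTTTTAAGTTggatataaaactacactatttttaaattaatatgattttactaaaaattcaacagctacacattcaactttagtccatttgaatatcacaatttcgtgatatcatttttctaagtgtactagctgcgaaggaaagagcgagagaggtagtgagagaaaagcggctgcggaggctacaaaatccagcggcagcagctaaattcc
Uninterrupted runs of A and T reach 15 bases in the Gapdh2 stretch, 19 in that of Eno, 14 in that of Hex-A and 17 in that of Ldh. G and C make up 33.6% of the Gapdh2 stretch, 28.9% of that of Eno, 35.6% of that of Hex-A and 32.8% of that of Ldh.

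**Figure D1:**
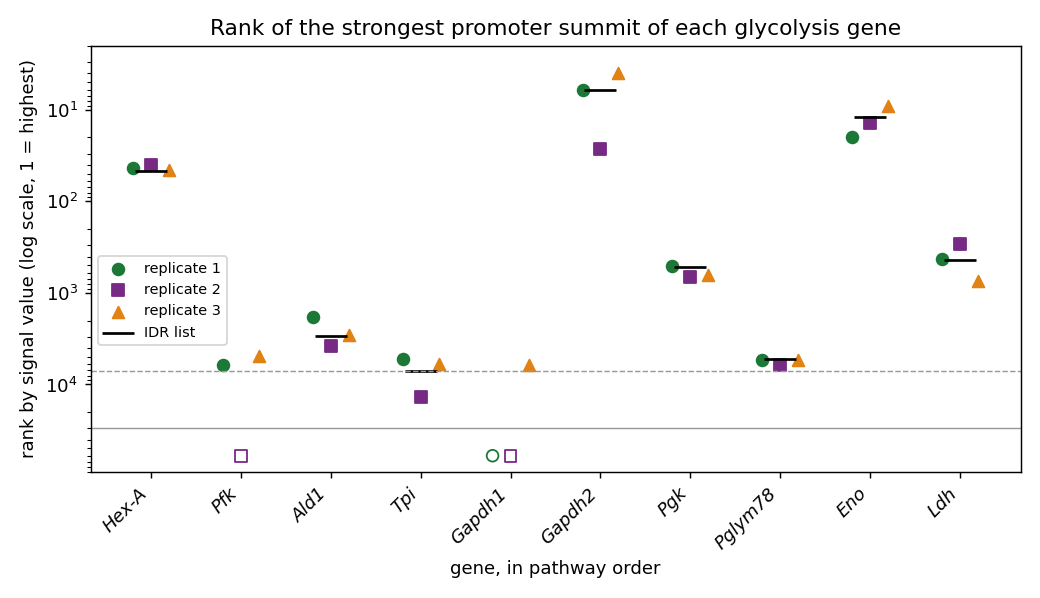
Rank by signal value of the strongest promoter summit of each glycolysis gene, in pathway order, on a log axis with rank 1 at the top, for replicates 1 to 3 (coloured points) and the IDR list (black bars). The dashed line is rank 7201, the length of the IDR list, the full line is the end of the lists at 30000, and open symbols below it are replicates without a promoter summit. Gapdh2, Eno and Hex-A stay within the 45 highest ranks in every replicate, whereas Pfk, Tpi and Gapdh1 lie beyond the dashed line or lack a summit in at least 1 replicate.

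The pathway opens with hexokinase. Hex-A (FBgn0001186, chrX:9585675-9589813, plus strand, dm6) had a summit of rank 43 in replicate 1, 40 in replicate 2 and 45 in replicate 3, with signal values of 1338, 973 and 1084. In the IDR list it had rank 47 and signal 3171. The 3 replicates therefore placed it in nearly the same position of their order. The summit lay 194 ± 23.0 bp upstream of the start site (mean ± SD, n = 3), outside any exon, and 173 bp upstream in the IDR list. Its interval was 1873 bases wide, against widths of 588 at Gapdh2, 741 at Eno and 450 at Ldh. Farther upstream the IDR list held further summits of rank 239 (signal 1634) and rank 2778 (signal 427), 1811 and 1612 bp before the same start site. One of rank 1523 and signal 619 lay past the end of the gene in an exon of the noncoding gene lncRNA:CR45542.

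Pfk encodes phosphofructokinase, the enzyme of the committed step, and was one of the weakest members. The gene (FBgn0003071, chr2R:10109740-10117457, plus strand) had no promoter summit in the IDR list, where the nearest summit lay 5872 bp from any of its start sites. The pooled list held a summit of rank 9693 and signal 168, 197 bp downstream of a start site in an untranslated exon, outside the 7201 ranks that form the IDR list. Replicate 1 had a summit of rank 6061 (signal 109) 156 bp downstream and replicate 3 one of rank 4933 (signal 120) 268 bp downstream, whereas replicate 2 had none among its 30000 peaks. Tpi was weak as well. Ald1, which precedes it in the pathway, had an IDR signal of 409, near the median of 417 over all genes with a promoter summit.

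Ald1, the aldolase gene, is FBgn0000064 at chr3R:26254069-26261591 on the minus strand and has 5 start sites. It had 4 IDR promoter summits, of ranks 2971, 3625, 5886 and 6101, with signal values of 409, 363, 255 and 249. Those of ranks 2971 and 6101 lay in an intron, 23 and 227 bp upstream of an internal start site. Those of ranks 3625 and 5886 lay in untranslated exons that overlap the antisense gene asRNA:CR44321, 198 bp downstream and 11 bp upstream of another start site, and peaks of ChIP-seq carry no strand. The strongest summit had rank 1851 in replicate 1, 3752 in replicate 2 and 2885 in replicate 3, with signal values of 232, 93.3 and 167. It was not the same summit in each. Replicate 1 had it 210 bp downstream of 1 start site, whereas replicates 2 and 3 had it 22 and 215 bp upstream of another. Signal at Ald1 was thus spread over several moderate peaks whose order changed between libraries.

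Tpi encodes triosephosphate isomerase, which interconverts the products of aldolase (FBgn0086355, chr3R:30132981-30134599, minus strand). Its IDR summit was among the last of that list, with rank 7127 and a signal value of 219.9, against a lowest value of 217.6 in the list. The summit lay 62 bp downstream of a start site in an untranslated exon. The strongest promoter summit had rank 5207 in replicate 1, 13685 in replicate 2 and 5941 in replicate 3, with signal values of 122, 33.4 and 105. Its place was 33 bp downstream of the inner start site in replicate 1. In replicates 2 and 3 it was 51 and 123 bp upstream of the outer start site. These were summits at different start sites, so neither rank nor position repeated closely. In the pooled list a further summit of rank 9974 and signal 163 lay 201 bp upstream of the outer start site, below the limit of the IDR list. Tpi was the last member inside that limit, and Pfk, at pooled rank 9693, the next one outside it.

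Gapdh1 and Gapdh2 both encode glyceraldehyde-3-phosphate dehydrogenase, which oxidises the triose phosphate, and they stood at opposite ends of the members. Gapdh2 (FBgn0001092, chrX:15868145-15869661, plus strand) had the highest promoter signal of the set, with rank 6 and signal 4869 in the IDR list, which is place 4 among the 3419 genes ordered by their strongest promoter summit. Its rank was 6 in replicate 1, 27 in replicate 2 and 4 in replicate 3, and its signal values were 2012, 1076 and 1935. The summit was at the same base in replicates 1 and 3 and in the IDR list, 161 bp upstream of the start site, and 188 bp upstream in replicate 2 (170 ± 15.6 bp upstream, mean ± SD, n = 3). Replicate 2 was thus the library in which Gapdh2 had its lowest place. Gapdh1 (FBgn0001091, chr2R:7791901-7793380, minus strand) had no promoter summit in the IDR list, the pooled list, replicate 1 or replicate 2. Replicate 3 alone had one, of rank 6186 and signal 102, 105 bp downstream of a start site in an untranslated exon. The nearest IDR summit to Gapdh1 was 3962 bp from a start site. Near-identical paralogues can share reads, so the window of 500 bp to each side of the start site nearest to each member's strongest summit was searched for exact repeats. None of the 971 stretches of 31 bases in the Gapdh1 window, nor in that of any other member, occurred again on the 6 chromosome arms. The search covered exact repeats only and the aligner was not named in the sources used, so sharing of reads was not tested.

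Pgk encodes phosphoglycerate kinase, the first enzyme of the pathway to return ATP (FBgn0250906, chr2L:2746880-2753068, minus strand, 5 start sites). Its strongest promoter summit had IDR rank 519 and signal 1121, and ranks of 510 in replicate 1, 673 in replicate 2 and 633 in replicate 3, with signal values of 473, 296 and 376. The 3 libraries placed this summit 195, 221 and 194 bp upstream of an internal start site, or 203 ± 15.3 bp upstream (mean ± SD, n = 3). It lies in an untranslated exon of longer Pgk transcripts. Pgk held 2 more IDR promoter summits, of rank 1355 (signal 660) 308 bp upstream of a start site and rank 2527 (signal 453) 274 bp downstream of the outermost one. That last summit also lies 6 bp upstream of a start site of Bacc, a gene on the other strand, and cannot be assigned to either. A stronger summit, of rank 259 and signal 1595, lay in a Pgk intron 957 bp from the nearest Pgk start site, outside the 500 bp window. It lies 334 bp upstream of a further start site of Bacc, whose strongest promoter summit it is, and was not counted for Pgk.

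Pglym78 encodes a phosphoglycerate mutase, which moves the phosphate within the molecule (FBgn0014869, chr3R:29148248-29149901, plus strand). Its single IDR promoter summit had rank 5279 and signal 278 and lay 1 bp downstream of a start site. The ranks in replicates 1 to 3 were 5415, 6159 and 5449, with signal values of 118, 63.5 and 112. This was a weak summit with a stable rank. It lay 1 bp downstream of a start site in replicate 1 and 42 bp upstream of the same one in replicate 3. In replicate 2 it lay 34 bp downstream of another start site farther upstream. By coordinate the replicate 2 summit was thus the farthest upstream. The IDR summit lies 171 bp upstream of a start site of CG11882 on the minus strand, so that it falls in the promoter window of both genes.

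Eno encodes enolase, which makes phosphoenolpyruvate (FBgn0000579, chr2L:1724768-1729636, minus strand, 3 start sites). Its strongest summit had IDR rank 12 and signal 4424, place 9 among the 3419 genes, and ranks of 20 in replicate 1, 14 in replicate 2 and 9 in replicate 3. The signal values were 1622, 1338 and 1532 in that order, and unlike Gapdh2 its place in the order was lowest in replicate 1, not in replicate 2. The summit lay 198 ± 9.71 bp upstream of the innermost start site (mean ± SD, n = 3), inside the intron printed above. It is therefore upstream of the short transcripts and within the body of the longer ones. At the outermost start site, where the longest transcript begins, the IDR list held a weaker summit of rank 1828 and signal 557, 162 bp upstream. There the ranks were 1766 in replicate 1, 1844 in replicate 2 and 1865 in replicate 3. That outer summit also lies 89 bp upstream of CG31937, transcribed the other way. An additional IDR summit of rank 3052 and signal 403 lay 358 bp downstream of the middle start site in an untranslated exon.

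Ldh encodes lactate dehydrogenase, which ends the route under fermentation (FBgn0001258, chr3L:6259105-6262694, minus strand). Its IDR summit had rank 436 and signal 1245. The ranks were 430 in replicate 1, 292 in replicate 2 and 744 in replicate 3, with signal values of 523, 450 and 347. By rank, replicate 3 was the lowest of the libraries here and replicate 2 the highest, the reverse of Gapdh2. The summit lay 207 ± 10.2 bp upstream of the outer start site (mean ± SD, n = 3). Weaker pooled summits of rank 10748 and 18871 lay 143 and 343 bp upstream of an internal start site and did not enter the IDR list.

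**Figure D2:**
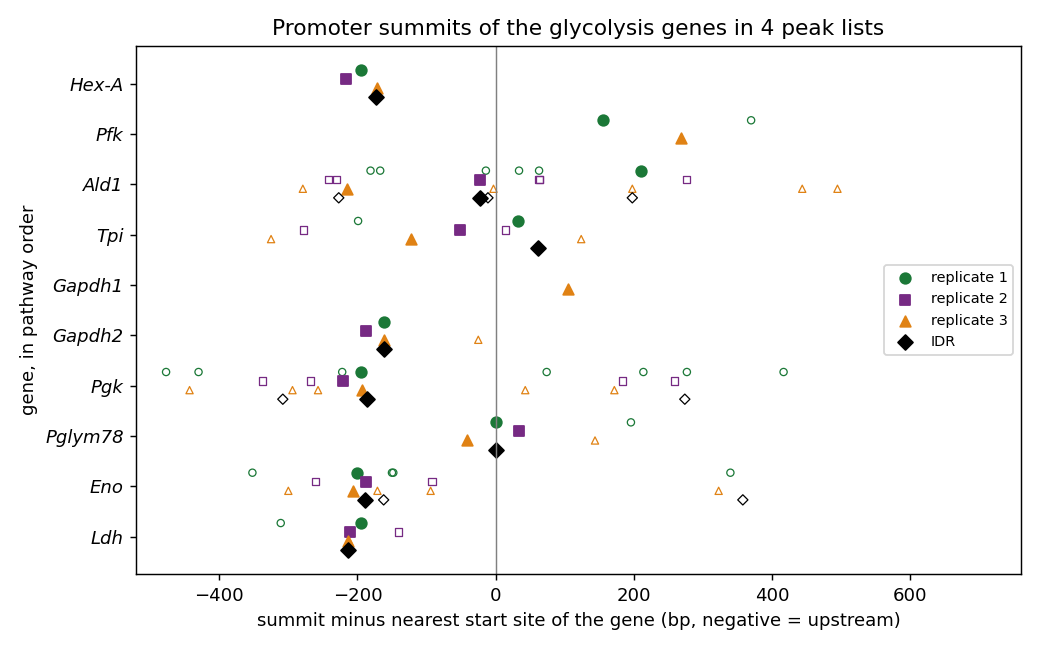
Distance in bp of every promoter summit from the nearest start site of its gene (negative is upstream, the vertical line is the start site), for each glycolysis gene in pathway order in replicates 1 to 3 and the IDR list. Large filled symbols are the strongest summit in each list and small open ones the weaker summits. Hex-A, Gapdh2, Pgk, Eno and Ldh keep their strongest summit between 161 and 221 bp upstream in all lists shown. Those of Ald1 and Tpi shift between lists and between start sites.

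Members differed strongly among themselves in signal. Across the 8 with an IDR promoter summit the highest signal, at Gapdh2, was 22.1 times the lowest, at Tpi. The members' median signal was 1183, against 417 over all 3419 genes with a promoter summit, and 5 of 8 members lay above that median. In the full lists of 30000 peaks, which reach lower signals, 9 of 9 members with a promoter summit lay above the list's own gene median in replicate 1, 7 of 8 in replicate 2 and 10 of 10 in replicate 3. The members' median rank was 477.5, against 2893 over all genes with a summit. It became 1814.5 in the replicate 3 list, where Pfk and Gapdh1 count as well, against 3160 over all genes there. With only the start site of each gene's longest transcript it was 2177.5, against 3037 over all genes, since the strongest summits of Eno and Pgk lie at internal start sites. The 5 strongest, Gapdh2, Eno, Hex-A, Ldh and Pgk, all lay within the 600 highest ranks, where 434 genes of the genome had their strongest promoter summit. The limit of 600 lies just past Pgk, at rank 519, so this count is a description. The members below the IDR median or without an IDR summit were Pfk, Ald1, Tpi, Gapdh1 and Pglym78.

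In the IDR list the 5 strongest members held their strongest summit farther upstream than the other 3. The IDR summits of Gapdh2, Hex-A, Pgk, Eno and Ldh lay 161, 173, 186, 189 and 214 bp upstream of a start site, a range of 53 bp. This range was read from the members and is a description. The strongest promoter summit fell in it in 13.2% of all 3419 genes (450 genes), in 27 of the 100 genes of highest signal and in 20.6% of the 500 of highest signal. Genes of high signal thus fell in this range more often than all genes, although most of the 100 highest lay outside it. The median was -167 bp over the 100 highest, with quartiles of -232.5 and -123.5 bp, and -122 bp over all genes. The 8 members' median was -167 bp as well, but -92 bp with windows of 1000 bp and -33 bp with only the start site of the longest transcript. Of these members, 6 of the 8 had an upstream summit, against 73.3% of all genes with one. Over the 100 genes of highest signal, 95 had it upstream. The 3 weakest members with an IDR summit, Ald1, Tpi and Pglym78, had theirs 23 bp upstream, 62 bp downstream and 1 bp downstream. The division did not hold in replicate 3, where Ald1 had its strongest summit 215 bp upstream, farther than any of the 5, and Tpi 123 bp upstream.

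**Figure D3:**
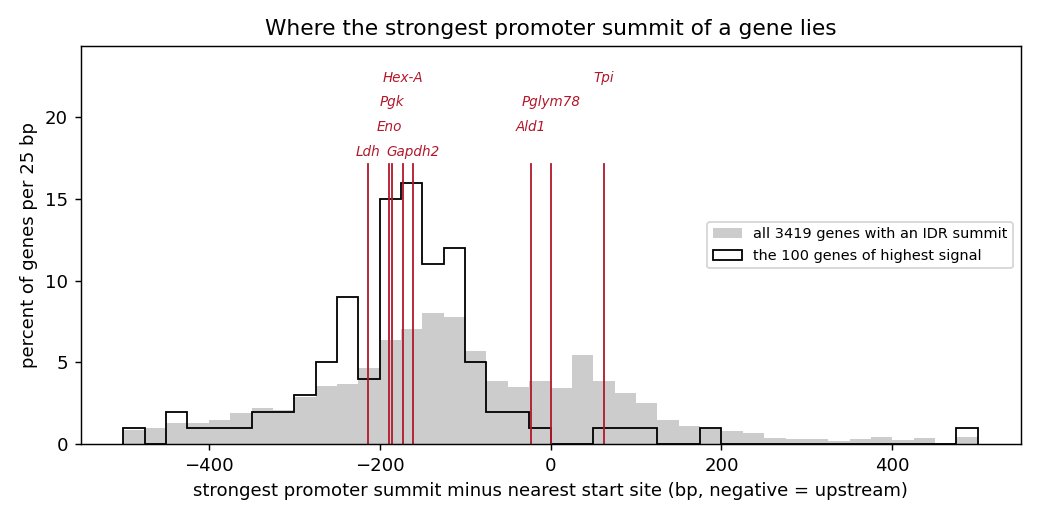
Distance in bp of the strongest IDR promoter summit of a gene from the nearest start site (negative is upstream), as the percent of genes in each 25 bp, for all 3419 genes with such a summit (grey) and the 100 genes of highest signal (black outline). Red lines mark the 8 glycolysis genes with an IDR promoter summit. The 5 strongest members stand between 161 and 214 bp upstream, where 27 of the 100 highest genes also lie, and the 3 weakest stand near the start site.

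The choice of members had not used base composition itself. It was made with strong peaks known, however, and base composition went with signal, as given below. In the 101 bases centred on the IDR summit, G and C made up 23.8% at Gapdh2, 28.7% at Eno, 21.8% at Hex-A and 18.8% at Ldh. The share was 42.6% at Pgk, 40.6% at Ald1, 45.5% at Tpi and 53.5% at Pglym78, and the median over all IDR summits was 35.6%. The 4 genes whose sequences are printed above thus lay in the A- and T-rich part of the IDR summits, where lower shares were found at 8.42% of summits for Gapdh2, 22.4% for Eno, 4.58% for Hex-A and 1.60% for Ldh. Pgk differed, since 70.5% of summits had a lower share. Among ranks 1 to 50 the quartiles were 24.0 and 31.4%, so Eno lay between them, Gapdh2 just below and Hex-A below. Ldh also lay below the quartiles for its ranks, which were 24.8 and 34.7% among ranks 201 to 500. In windows of the same length centred 200 bp away, G and C made up 38.1% at Gapdh2, 46.5% at Eno, 47.5% at Hex-A and 53.5% at Ldh. The share was thus lower at the summit than beside it at these genes and also at Tpi, where it was 55.0% beside the summit. The opposite held at the other members, with 36.6% beside the summit at Pgk, 30.7% at Ald1 and 44.6% at Pglym78. Low G and C at the summit went with high signal over the whole list, with a median of 27.7% in the 100 IDR peaks of highest signal and 39.6% in the 500 of lowest signal. Of those 100 peaks, 97.0% had less G and C at the summit than beside it. The part of base composition in the signal at the members was not tested.

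**Figure D4:**
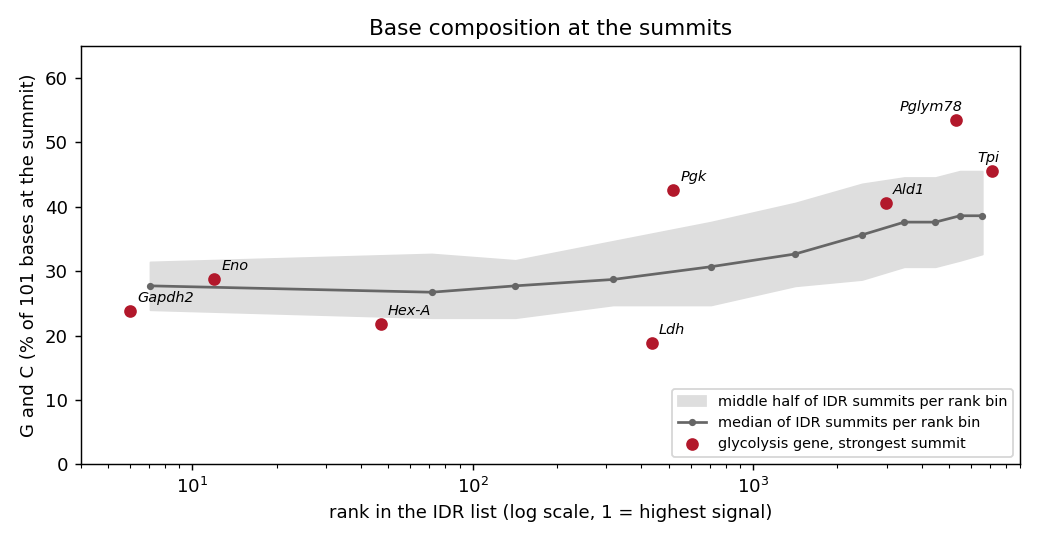
G and C content in percent of the 101 bases at the strongest IDR promoter summit of each of 8 glycolysis genes (red) against the rank of that summit in the IDR list (log axis, 1 is the highest signal). The grey line and band are the median and the middle part, between the quartiles, of all IDR summits in bins of rank. Gapdh2, Eno, Hex-A and Ldh lie between 18.8 and 28.7%, whereas Pgk, at rank 519, lies at 42.6%, above the band.

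Short sequence words of transcription factors were looked for, on either strand, in the 50 bp to each side of the 8 members' IDR summits and of all 7201 IDR summits. The word AGGTCA, the element of many nuclear receptors including ERR, was present at 3 members, Gapdh2, Tpi and Pglym78, against 1.79% of all IDR summits. In start-site windows of 250 bases before to 50 after, it was present in 5 of the 10 members, namely Gapdh1 and Pgk besides these, against 5.69% of 19253 windows. The longer word TCAAGGTCA, which contains AGGTCA and is an exact form of the full element of ERR, was in no member window of either kind. It was present at 0.0694% of IDR summits and in 0.166% of start-site windows. Other forms of the full element were not searched for. The sites are printed because this word was the one most frequent at the members relative to all summits among the 14 words searched, a choice made after the values were seen. That of Gapdh1, a member without an IDR summit, is left out. The others are given with the word in capitals and 10 bases on each side, along the strand of the gene. They are chrX:15867946-15867971 on the plus strand for Gapdh2, chr3R:30134276-30134301 on the minus strand for Tpi, chr3R:29148340-29148365 on the plus strand for Pglym78 and chr2L:2748492-2748517 on the minus strand for Pgk (dm6, RefSeq).
Gapdh2: tatactttatAGGTCActttaactgt
Tpi: agacttacgaAGGTCAaaagaaggtt
Pglym78: gctcccttgtAGGTCAaacttcagca
Pgk: accgacaaaaTGACCTtgcgctgaca
The Pgk copy reads AGGTCA on the opposite strand. It lies 166 bp from the nearest Pgk summit, whereas the word lies 23 bp from the summit at Gapdh2, 39 bp at Tpi and 7 bp at Pglym78. A match of letters is a description and not a binding site, and 2 of the 3 members with the word at the summit, Tpi and Pglym78, were among the weakest.

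None of the other words was at more than 2 member summits. GATAA, read by GATA factors, was at the summits of Pgk and Eno, against 29.6% of all IDR summits. TATAAA was at Gapdh2 and Ldh, against 19.4%. The copy at the Gapdh2 summit began 194 bp upstream of the start site, and those of Ldh began 232 and 200 bp upstream. A further Gapdh2 copy, which began 217 bp upstream, lay outside the 50 bp to each side of the summit. TAATTA, a homeodomain word, was at Hex-A, against 9.72%, GAGAG was at Pgk, against 11.8%, and TCAGT, an initiator word, was at Ald1, against 18.4%. CACGTG, the E-box used by Myc and Mondo, was at no member summit or start-site window, against 0.833% of IDR summits and 4.04% of start-site windows. ACGTG, part of CACGTG and the core of the hypoxia response element, was at no member summit and in the start-site window of Gapdh2, against 7.12% of IDR summits and 23.9% of start-site windows. The other 5 words were at no member summit and at 0.194 to 3.47% of all IDR summits. In the start-site windows TGATGCAA was present at Tpi, against 0.857% of windows, and GGTCACACT at Gapdh1, against 5.23%, and the remaining 3 were at no member. The GGTCACACT of Gapdh1 overlaps its AGGTCA, since they began 60 and 56 bp upstream on the same strand, so they are not separate sites.

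Other genes of sugar metabolism were taken from 8 lists with 71 genes. These lists too were chosen with earlier results of these data known, so their shares are a description and were not tested. An IDR promoter summit was present at 43 of the 71 genes (60.6%), against 24.5% of all protein-coding genes. The count was 44 in replicate 1, 36 in replicate 2 and 44 in replicate 3. A summit within the 600 highest ranks was present at 7 of the 71, against 5 of the 10 members. That limit lies just past Pgk at rank 519 and before ERR at 624 and mAcon1 at 664 of the other lists. The members were also chosen with strong peaks known, so the contrast is a description. It counts Eno and Pgk by internal start sites, which are dropped when only the start site of the longest transcript is used. The median ranks were 477.5 for the members and 2038 for the other lists. With only the start site of the longest transcript they were 2177.5 and 2815.5, and in the replicate 3 list 1814.5 and 2172. Of the remaining enzymes of the glycolytic steps, Hex-C, a further hexokinase, had rank 1510 and signal 622. PyK, the pyruvate kinase, had no IDR summit but ranks of 4132 in replicate 1 and 4768 in replicate 3, and Pgi, the isomerase after hexokinase, had none in any of these lists. None of 11 paralogues of glycolytic enzymes with restricted expression had an IDR promoter summit, which allows a share of up to 27.3%, and CG7059, a phosphoglycerate mutase, had one of rank 7113 in replicate 1.

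Branches that feed or drain the pathway were mixed. Storage, trehalose and transport genes had an IDR promoter summit at 8 of 10, led by Glyp, the glycogen phosphorylase, at rank 56 with signal 2963, 191 bp upstream of a start site. Its ranks in replicates 1 to 3 were 52, 84 and 48, behind Hex-A in each. Pgm1, the phosphoglucomutase that links glycogen to glycolysis, had signal 813, the glucose transporter Glut1 had 790 and the trehalase Treh had 732. Gluconeogenesis had 3 of 4, with PCB, the pyruvate carboxylase, at rank 296 and signal 1509, fbp, the fructose-1,6-bisphosphatase, at 705 and Pepck1 at 301. The pentose phosphate pathway had 4 of 6, led by the transketolase CG8036 at rank 158 and signal 2029, with Rpe at 384, Zw, the glucose-6-phosphate dehydrogenase, at 275 and Taldo at 270. In the pyruvate and glycerol 3-phosphate branch 5 of 9 had one, with signals of 593 at Gpdh1, 534 at Gpo1, 528 at Pdp and 421 at Pdhb. In each of these lists 1 gene or none reached the 600 highest ranks.

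The tricarboxylic acid cycle, which oxidises the product of pyruvate in mitochondria, had an IDR promoter summit at 11 of 17 genes with a median rank of 5076. Its strongest were Idh3g with signal 1404, Fum1 with 1284, mAcon1 with 987 and SdhC with 438. The regulators of sugar metabolism had one at all 11 genes, with a median rank of 1913. They were led by cbt (Cabut) with signal 1924, foxo with 1314, ERR with 1020 and Mondo, a glucose-responsive factor, with 699. Every list held fewer genes in replicate 2 than in replicate 1 or the same number, except the pentose phosphate pathway, with 4 genes in replicate 2 and 3 each in replicates 1 and 3.

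**Figure D5:**
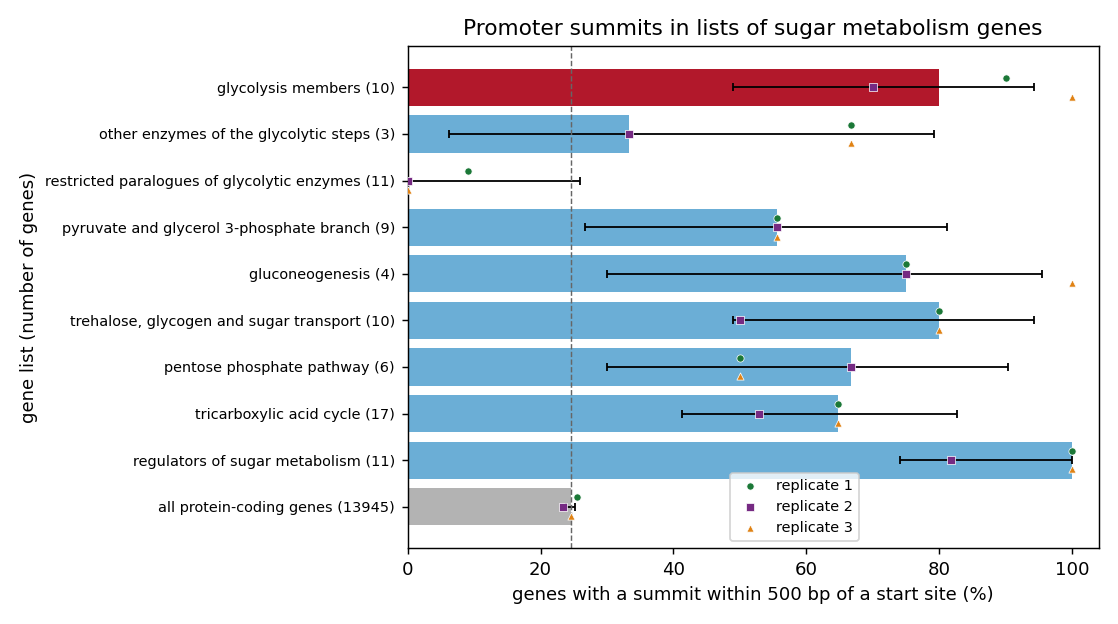
Percent of genes with an IDR promoter summit in the glycolysis members (red bar), 8 other lists of sugar metabolism genes (blue bars, number of genes in brackets) and all protein-coding genes (grey bar and dashed line), with 95% Wilson intervals that cover counting error only. Points are the same share among the 7201 highest peaks of each replicate. The members reach 80.0%, as do the genes of trehalose, glycogen and sugar transport, against 24.5% of all genes. The regulators are at 100%. The paralogues with restricted expression are at 0, with an interval that includes the share of all genes.

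By rank in the 3 replicates, the promoter summits most like that of Gapdh2 were found among 4778 genes by the sum of the absolute differences in log2 rank. The nearest was gish, which encodes a casein kinase, with a sum of 1.39 and ranks of 7, 21 and 7 in replicates 1 to 3. CG10165 followed with 1.92 and ranks of 12, 34 and 6, and CG1635 with 3.29 and ranks of 16, 24 and 13. All of them had, like Gapdh2, a lower place in replicate 2, a property that the choice by rank selects for. Their IDR summits lay 156, 181 and 138 bp upstream of a start site. Of the 100 genes of highest signal, 95 had an upstream summit.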

How the data were processed

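ChIP-seq peak lists of 3 replicate libraries from whole larvae of 1 transgenic line were used. Peaks were called per replicate with a control alignment and on the pooled libraries, and the IDR list was derived from these, per the deposited text notes. The assembly is dm6, per the labels. Names of the peak caller and aligner were not given in the sources used here. For each peak the authors deposited a signal value (a score of unstated scale), a −log10 q value and a summit offset. The −log10 q was not used for ranking, since all 7201 IDR peaks stand at its ceiling. Summits are peak start plus offset, given 1-based.

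Start sites came from Ensembl release 115 and sequence from the RefSeq copy of the assembly. Promoter windows were 500 bp and G and C content and words were read in 101 bases at the summit. With 1 group and no control group no test was made. The members and gene lists were chosen with earlier results of these data known. Genes named are the 10 members, up to 4 genes of highest promoter signal in each list, genes sharing a member's summit and the 3 genes nearest to the strongest member by replicate rank. PyK, Pgi, CG7059, asRNA:CR44321 and lncRNA:CR45542 are named in addition. In the lists, 3 older symbols were replaced by current ones. Limits for a count of 0 use 3 counts. Replicate lists were cut to 7201 peaks for counts. Alternatives changed the window, the list, the replicates and the start sites. The software was pandas 2.3.3 with numpy 2.4.6 under Python 3.11.15, with figures by matplotlib 3.10.9. The assignment of summits to genes was tested on simulated summits planted at known distances from start sites, and the other steps were not.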

Additional observations from a re-analysis of the deposited data

How the results depend on the processing

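The count of members with a promoter summit was 8 and stayed between 6 and 10 under every alternative run, and 7 whichever replicate was left out. Leaving out a replicate meant keeping IDR peaks found in both others, and Tpi was then lost besides Pfk and Gapdh1. With 1 start site per gene, that of the longest transcript, the internal start sites of Eno and Pgk were dropped and the members' median rank was 2177.5 instead of 477.5. In the replicate 3 list, where all members count, it was 1814.5, and with a replicate left out 436. The median distance of -167 bp became -33 bp with 1 start site per gene, -188 bp in the replicate 2 list, -173 bp with a replicate left out and -92 bp with windows of 1000 bp, which admit the summit 957 bp from Pgk that lies at a Bacc start site. The share of all genes was 20.41% with windows of 250 bp, 28.61% with 1000 bp, 14.85% in the upper 3600 IDR peaks, 45.45% in the pooled list, 23.32% in replicate 2, 13.83% for IDR peaks found in all 3 replicates, 21.74% with 1 start site per gene, and 14.75 to 18.6% with a replicate left out. Of the 71 other genes of sugar metabolism 43 had a summit, but 28 in the upper 3600 peaks, 26 in all 3 replicates and 28 to 33 with a replicate left out. No paired analysis was possible because the study has 1 group. Differences below the lowest listed signal of each list cannot be seen.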
